A study of Mus musculus with 16 samples.

Results

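Gad1, Gad2, Slc32a1, Slc6a11 and Abat carry a GABA neuron's transmitter through its life: the first pair encode the enzymes that make GABA, Slc32a1 the carrier that loads it into vesicles, Slc6a11 a membrane transporter that takes it up again and Abat the enzyme that begins its breakdown. They were chosen by symbol, as 5 of 30729 mouse genes that the array annotation used here names through a transcript cluster of their own, and each had 1 such cluster. All 5 were among the 20486 genes that passed a filter on low levels and were tested.

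The 16 arrays measured RNA of cells that carried the red fluorescent protein tdTomato as a marker of parvalbumin interneurons, and each array held 2000 sorted cells pooled from 2 to 4 mice. The cells were sorted by flow cytometry from dorsal striatum or from motor and somatosensory cortex of C57BL/6J mice aged 30 days, all labelled male. There were 4 PVCre striatal, 4 PVCre cortical, 4 PV-tdTomato striatal and 4 PV-tdTomato cortical arrays. The PVCre mice had the genotype PVCre/+; tdTomato/+, in which Cre recombinase under parvalbumin control switches the reporter on, and the PV-tdTomato mice the genotype PV-tdTomato/+, in which the reporter is made without Cre. All 16 arrays thus came from mice with 1 tdTomato reporter allele, and the PVCre arrays also carried 1 Cre allele. As background, a Cre reporter stays on in cells that once made parvalbumin, whereas a direct reporter follows the promoter that drives it.

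GABA is the main inhibitory transmitter of the adult forebrain. Glutamate is decarboxylated by GAD67, the Gad1 product that is spread through the cell, and by GAD65, the Gad2 product that sits at synaptic endings, and the vesicular carrier VGAT, encoded by Slc32a1, fills synaptic vesicles. Released GABA is cleared by transporters in neurons and astrocytes, and GABA transaminase, the Abat product, passes it towards the citric acid cycle in mitochondria.

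A promoter window of 250 bases is shown for 4 of the 5 genes because 3 of these genes, Gad1, Gad2 and Slc32a1, moved together across PVCre arrays. Slc6a11 stands beside them. Each window ends just before the start listed for that promoter. For Slc6a11 this is the start of the annotated gene. The windows of Gad1, Gad2 and Slc32a1 lie inside the annotated genes, which start at 70561303, 22621015 and 158607260. The sequences are RefSeq's, in build GRCm38.p6 on the + strand, at chr2:70561879-70562128 (Gad1), chr2:22622077-22622326 (Gad2), chr2:158610508-158610757 (Slc32a1) and chr6:114130991-114131240 (Slc6a11); Abat is named only. Capitals mark matches, on either strand, to TATAAA (the TATA box), GGGCGG (the GC box), CCAAT (the CCAAT box), TAATTA (a homeodomain core) or CACGTG (an E-box).
Gad1: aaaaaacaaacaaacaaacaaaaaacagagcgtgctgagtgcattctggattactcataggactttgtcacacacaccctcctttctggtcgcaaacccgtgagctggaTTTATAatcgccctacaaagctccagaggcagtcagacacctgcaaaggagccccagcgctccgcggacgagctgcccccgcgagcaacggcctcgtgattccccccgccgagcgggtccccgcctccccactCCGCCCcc
Gad2: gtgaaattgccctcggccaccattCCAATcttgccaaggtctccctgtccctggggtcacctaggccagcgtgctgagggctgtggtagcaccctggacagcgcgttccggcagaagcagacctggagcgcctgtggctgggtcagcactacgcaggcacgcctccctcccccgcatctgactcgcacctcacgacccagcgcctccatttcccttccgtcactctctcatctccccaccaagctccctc
Slc32a1: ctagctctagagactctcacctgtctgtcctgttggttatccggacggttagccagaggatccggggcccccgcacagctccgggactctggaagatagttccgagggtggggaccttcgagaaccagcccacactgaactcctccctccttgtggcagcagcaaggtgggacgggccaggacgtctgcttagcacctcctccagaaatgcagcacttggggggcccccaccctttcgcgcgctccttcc
Slc6a11: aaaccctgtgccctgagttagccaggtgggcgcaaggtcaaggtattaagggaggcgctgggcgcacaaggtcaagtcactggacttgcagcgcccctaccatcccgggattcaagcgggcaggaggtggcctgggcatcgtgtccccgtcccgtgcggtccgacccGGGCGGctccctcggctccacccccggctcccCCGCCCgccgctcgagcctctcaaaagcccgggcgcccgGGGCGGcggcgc
Gad1 held 1 TATAAA, starting at base -141 counted from the first base after the window, and 1 GGGCGG, starting at -8. Gad2 held 1 CCAAT, Slc6a11 held 3 GGGCGG, and Slc32a1 held none of the 5 motifs. No motif of the 5 occurred in all 4 windows, none of them held TAATTA or CACGTG, and the matched motifs are common: of 32851 promoters in the same table, 12.4% held TATAAA, 32.7% GGGCGG, 33.8% CCAAT, 4.8% TAATTA and 6.0% CACGTG. The looser E-box CANNTG, which overlaps CACGTG, occurred in all 4 windows and in 66.2% of all promoters. G and C made up 58.0% of the bases of Gad1, 64.0% of Gad2, 62.4% of Slc32a1 and 71.2% of Slc6a11, above the median promoter at 52.4%. These are matches of letters and not sites of binding.

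Levels below are RMA values in log2 units, so a difference of 1 means that signal doubles, and levels of different genes are not set against each other because their probes differ. The means of 23 background probe sets reached 6.1, and levels near that value are close to background. Several arrays stood apart. Pvalb, which encodes parvalbumin, was at 6.69 to 8.40 in 6 arrays (PVCre cortex replicates 2 and 4, and in each PV-tdTomato group replicates 3 and 4) and at 10.20 to 12.48 in the other 10. Xist, a noncoding RNA made from the silenced X chromosome in females, was above 12 in 6 of 8 PVCre and 2 of 8 PV-tdTomato arrays although all mice were labelled male. Oligodendrocyte markers were high on all arrays, with a mean over the list of 14.71 to 15.65 in PVCre and 12.85 to 15.32 in PV-tdTomato. In these bulk samples, fewer cells of a type and less RNA per cell cannot be told apart. PVCre cortex replicates 2 and 4 were low in 3 of the 5 genes described here, so results that rest on them are given with and without them; they were picked after their values were seen, and values without them are descriptive.

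Gad1 (transcript cluster TC0200001023.mm.1) was strongly detected in 3 of the 4 groups and scattered widely in the remaining one. In PVCre striatum its level was 11.92, 13.41, 14.43 and 13.92 in replicates 1 to 4, and in PVCre cortex 11.63, 8.88, 13.66 and 7.40. In PV-tdTomato striatum it was 14.41, 14.09, 12.09 and 12.77, and in PV-tdTomato cortex 14.04, 14.00, 12.20 and 12.43. PVCre cortex replicates 4 and 2 were the lowest of all 16 arrays, while replicate 3 of that group was among the other groups' arrays. Group means were 13.42 ± 1.09 (SD, n = 4) in PVCre striatum, 10.39 ± 2.79 in PVCre cortex, 13.34 ± 1.09 in PV-tdTomato striatum and 13.17 ± 0.99 in PV-tdTomato cortex. The 3 high groups overlapped, and so did PVCre cortex with each of them.

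Gad2 (TC0200000347.mm.1) was lower in PVCre cortex than in PV-tdTomato cortex on every array, where 47.1% of all genes did not overlap between the lines. Its level was 10.29, 11.25, 11.86 and 11.66 in PVCre striatum and 9.15, 6.79, 10.94 and 6.56 in PVCre cortex. It was 13.52, 13.40, 11.56 and 12.14 in PV-tdTomato striatum and 13.85, 13.38, 12.32 and 12.06 in PV-tdTomato cortex. PVCre cortex replicates 2 and 4 were again lowest, close to background, and the highest PVCre cortical array stayed under the lowest PV-tdTomato cortical array. The striatal arrays of the lines overlapped, with PVCre replicates 3 and 4 above PV-tdTomato replicate 3. Means were 11.27 ± 0.70 in PVCre striatum, 8.36 ± 2.08 in PVCre cortex, 12.66 ± 0.96 in PV-tdTomato striatum and 12.90 ± 0.85 in PV-tdTomato cortex (SD, n = 4 each).

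Slc32a1 (TC0200002437.mm.1), the vesicular carrier that GABA and glycine neurons need for release, separated the lines in both regions. Its level was 8.67, 9.87, 10.60 and 10.12 in PVCre striatum and 8.81, 6.88, 10.45 and 5.12 in PVCre cortex. It was 13.96, 13.63, 11.88 and 12.44 in PV-tdTomato striatum and 13.79, 13.52, 11.85 and 11.39 in PV-tdTomato cortex. No PVCre array reached a PV-tdTomato array, and PVCre cortex replicate 4 was within the background range. Within a region, 50.3% of all genes tested in striatum and 47.1% in cortex also did not overlap between the lines. Means were 9.82 ± 0.82 in PVCre striatum, 7.81 ± 2.32 in PVCre cortex, 12.98 ± 0.98 in PV-tdTomato striatum and 12.64 ± 1.19 in PV-tdTomato cortex (SD, n = 4 each).

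Slc6a11 (TC0600001266.mm.1) encodes GAT3, a GABA transporter best known from astrocytes, and was near background in the PVCre line. Its level was 7.13, 6.64, 6.50 and 6.25 in PVCre striatum and 6.22, 6.43, 6.66 and 7.36 in PVCre cortex. It was 8.88, 8.54, 9.94 and 9.61 in PV-tdTomato striatum and 9.39, 9.23, 10.37 and 9.63 in PV-tdTomato cortex. Unlike Gad1, Gad2 and Slc32a1, it was highest in PV-tdTomato replicates 3 and 4, the arrays low in Pvalb, and it was not low in PVCre cortex replicate 4. Means were 6.63 ± 0.37 in PVCre striatum, 6.67 ± 0.50 in PVCre cortex, 9.24 ± 0.65 in PV-tdTomato striatum and 9.65 ± 0.51 in PV-tdTomato cortex (SD, n = 4 each).

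Abat (TC1600000089.mm.1) was detected on all 16 arrays. Its level was 9.53, 9.92, 11.20 and 11.18 in PVCre striatum and 9.09, 8.65, 10.06 and 9.83 in PVCre cortex. It was 12.70, 12.77, 11.97 and 12.03 in PV-tdTomato striatum and 13.17, 12.89, 11.22 and 11.08 in PV-tdTomato cortex. Every PVCre array was under every PV-tdTomato array of its region, where 50.3% of all genes in striatum and 47.1% in cortex did not overlap either. Replicates 2 and 4 of PVCre cortex were not set apart from replicates 1 and 3. Means were 10.46 ± 0.86 in PVCre striatum, 9.41 ± 0.65 in PVCre cortex, 12.37 ± 0.43 in PV-tdTomato striatum and 12.09 ± 1.09 in PV-tdTomato cortex (SD, n = 4 each).

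**Figure D1:**
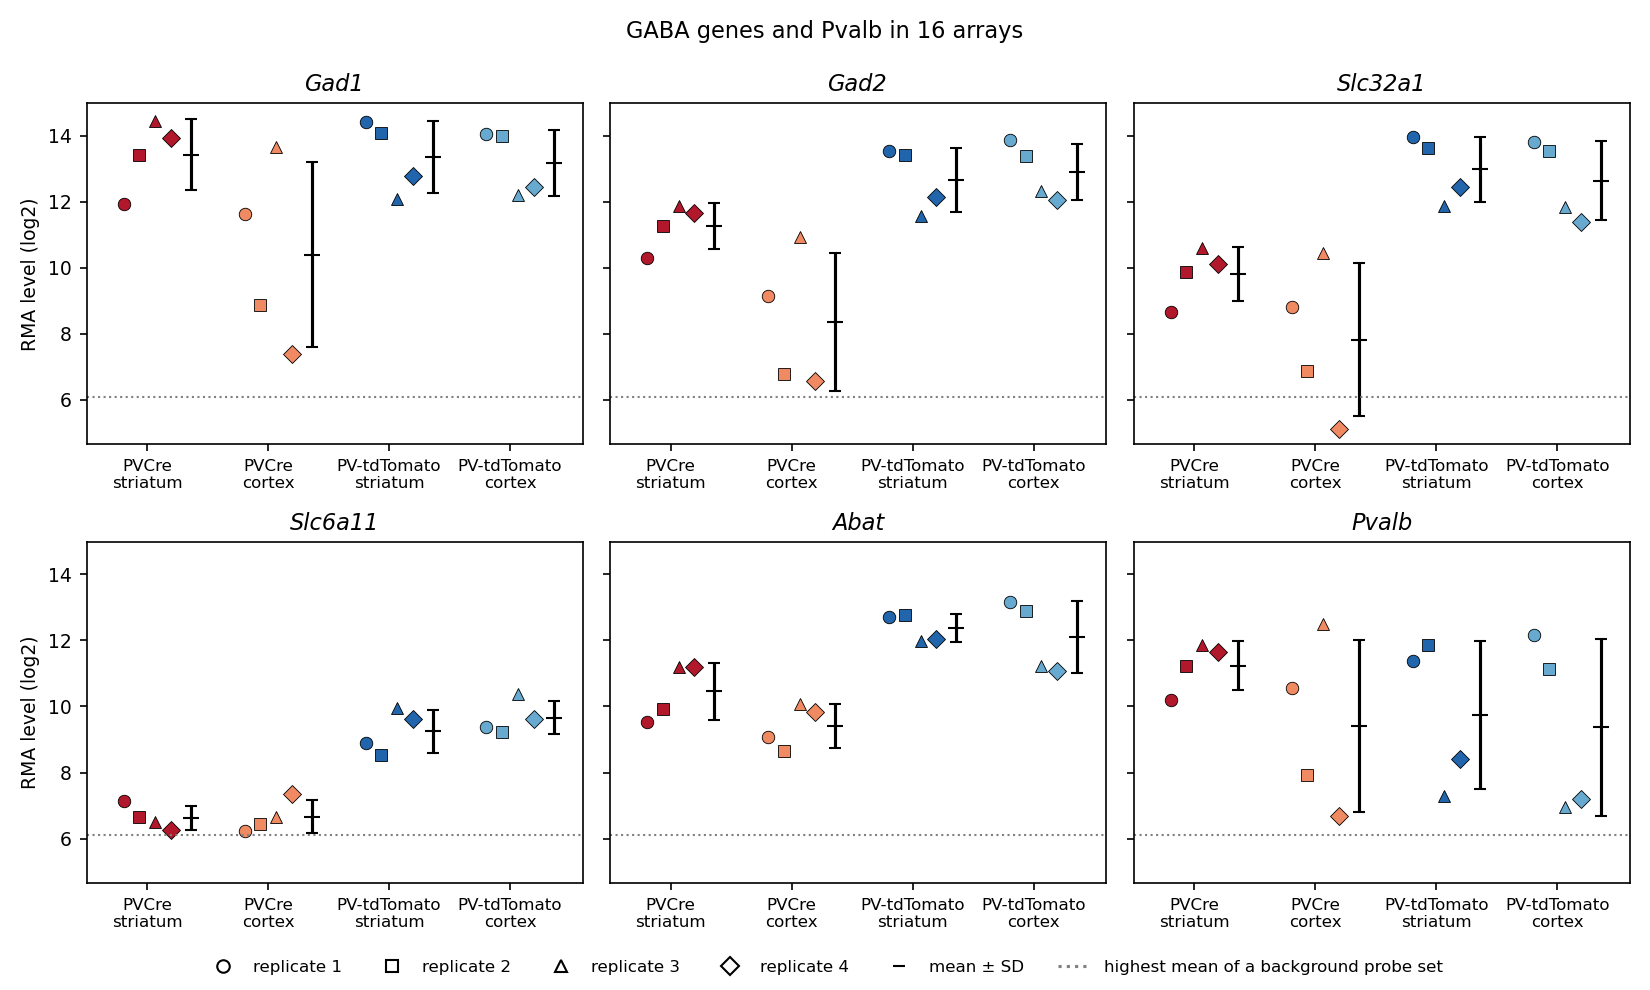
RMA levels (log2, vertical axis) of the 5 GABA genes and Pvalb on each of 16 arrays, 1 panel per gene, with groups along the horizontal axis, points for arrays (shapes mark replicates), bars for group means and SDs (n = 4), and a dotted line at 6.1, the highest mean of a background probe set. Slc32a1, Slc6a11 and Abat are lower on every PVCre array than on any PV-tdTomato array of the same region, and Gad1 in PVCre cortex spans 7.40 to 13.66. Of all genes tested, 50.3% in striatum and 47.1% in cortex do not overlap between the lines.

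The first comparison asked whether the striatal and the cortical cells differed in these genes. Over both lines, limma called 0 of 5 in either direction at an adjusted p under 0.05, against 4.25% of all genes tested, and 1 of 5 (Gad2) had an unadjusted p under 0.05. Differences (striatum minus cortex) were 1.60 ± 0.77 (SE) for Gad1, 1.33 ± 0.58 for Gad2, 1.17 ± 0.67 for Slc32a1, -0.23 ± 0.24 for Slc6a11 and 0.66 ± 0.37 for Abat, with limma's adjusted p between 0.29 and 0.67. Without PVCre cortex replicates 2 and 4 they were 0.47 ± 0.56 for Gad1, 0.49 ± 0.45 for Gad2 and 0.26 ± 0.52 for Slc32a1. Slc6a11 was then at -0.11 ± 0.26 and Abat at 0.58 ± 0.42. The same difference was then taken within each line. In PVCre it was 3.03 ± 1.08 for Gad1, 2.90 ± 0.82 for Gad2 and 2.00 ± 0.94 for Slc32a1, with adjusted p of 0.17, 0.071 and 0.33. Slc6a11 differed there by -0.04 ± 0.34 and Abat by 1.05 ± 0.52. Cell type markers moved with region in PVCre too. Striatal projection neuron markers averaged 7.59 to 8.47 in PVCre striatum and 6.38 to 7.30 in PVCre cortex, with 4 of 8 higher in striatum. Endothelial and pericyte markers averaged 6.77 to 8.73 in PVCre striatum and 5.74 to 6.04 in PVCre cortex, with 6 of 9 higher in striatum. Of all genes tested, 2.85% were called higher in PVCre striatum. The oligodendrocyte mean was 14.71 to 14.96 in PVCre striatum and 15.31 to 15.65 in PVCre cortex, with 0 of 9 markers called. The part of the projection neuron and endothelial markers in the region differences was not tested. Of the 5 GABA genes, limma called 0 in PVCre against 3.89% of all genes, and 2 (Gad1 and Gad2) had an unadjusted p under 0.05. Without PVCre cortex replicates 2 and 4 the PVCre differences were 0.78 ± 0.86 for Gad1, 1.22 ± 0.70 for Gad2, 0.19 ± 0.81 for Slc32a1, 0.19 ± 0.40 for Slc6a11 and 0.88 ± 0.65 for Abat, and none was called. Without PVCre cortex replicate 3, the one with most Gad1, Gad1 (4.12 ± 0.92; limma, adjusted p = 0.023) and Gad2 (3.77 ± 0.68; 0.0061) were called in PVCre, and Gad2 over both lines (1.76 ± 0.46; 0.047).

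In PV-tdTomato the region difference was nearer 0 for each of the synthesis and packaging genes. It was 0.17 ± 1.08 (95% interval -2.14 to 2.49) for Gad1, -0.25 ± 0.82 for Gad2, 0.34 ± 0.94 for Slc32a1, -0.41 ± 0.34 for Slc6a11 and 0.27 ± 0.52 for Abat. Limma called 0 of 5, against 2.31% of all genes, and 0 had an unadjusted p under 0.05. The intervals are wide, so equal levels were not shown. They rest on 1 spread shared by all 4 groups, the scattered PVCre cortex included. In a fit of only the PV-tdTomato arrays the SE was 0.64 for Gad1, 0.56 for Gad2 and 0.67 for Slc32a1. For Slc6a11 it was 0.37 there and for Abat 0.51. The arrays of striatum and cortex overlapped for all 5 genes in both lines, against 13.4% of all genes without overlap in PVCre and 5.97% in PV-tdTomato. The test of the difference between the lines' region effects called 0 of 5, against 0.195% of all genes. Its largest value among the 5 was 3.15 ± 1.17 for Gad2 (limma, adjusted p = 0.48), the 1 gene of the 5 with an unadjusted p under 0.05. This value rests in part on PVCre cortex replicates 2 and 4, without which the PVCre region difference of Gad2 was 1.22 ± 0.70.

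The second comparison set the PVCre line against PV-tdTomato, which differ in how the reporter is switched on. In striatum, 3 of 5 genes fell and none rose, against 35% of all genes tested that were called lower and 53.4% called in either direction. Slc32a1 fell by 3.16 ± 0.94 (SE; 8.95-fold; limma, adjusted p = 0.011), Slc6a11 fell by 2.61 ± 0.34 (6.11-fold; adjusted p = 2.5e-05) and Abat fell by 1.91 ± 0.52 (3.75-fold; adjusted p = 0.0067). Gad1 differed by 0.08 ± 1.08 (95% interval -2.23 to 2.40) and Gad2 by -1.39 ± 0.82 (adjusted p = 0.17), and neither was called. The arrays of these 3 called genes, and of neither Gad gene, did not overlap between the lines, against 50.3% of all genes without overlap.

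In cortex all 5 genes fell, against 34.4% of all genes called lower and 53.5% called in either direction. Slc32a1 fell by 4.82 ± 0.94 (28.3-fold; limma, adjusted p = 6.6e-04), Gad2 by 4.54 ± 0.82 (23.3-fold; 3.8e-04), Slc6a11 by 2.98 ± 0.34 (7.91-fold; 8.7e-06) and Abat by 2.68 ± 0.52 (6.43-fold; 6.3e-04). Gad1 fell by 2.78 ± 1.08 (6.85-fold; adjusted p = 0.043), the call nearest the threshold. The arrays of 4 of the 5, all but Gad1, did not overlap, against 47.1% of all genes. Without PVCre cortex replicates 2 and 4, Gad1 differed by -0.52 ± 0.86 (adjusted p = 0.66) and was no longer called. Without the same 2 arrays the other 4 genes stayed called, Gad2 at -2.86 ± 0.70 (limma, adjusted p = 0.0067), Slc32a1 at -3.01 ± 0.81 (0.011), Slc6a11 at -3.21 ± 0.40 (1.1e-04) and Abat at -2.52 ± 0.65 (0.0088). Of all 20486 genes, 8251 were called in cortex in that fit. The call of Gad1 was also lost without any 1 of 7 arrays, at -2.27 ± 1.16 without PVCre cortex replicate 2, -1.78 ± 0.97 without PVCre cortex replicate 4, -2.49 ± 1.19 without PV-tdTomato cortex replicate 1 and -2.50 ± 1.20 without PV-tdTomato cortex replicate 2. The other 3 of the 7 (PVCre striatum replicates 2 and 4 and PV-tdTomato striatum replicate 4) left it at -2.78 with adjusted p of 0.05 to 0.052.

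**Figure D2:**
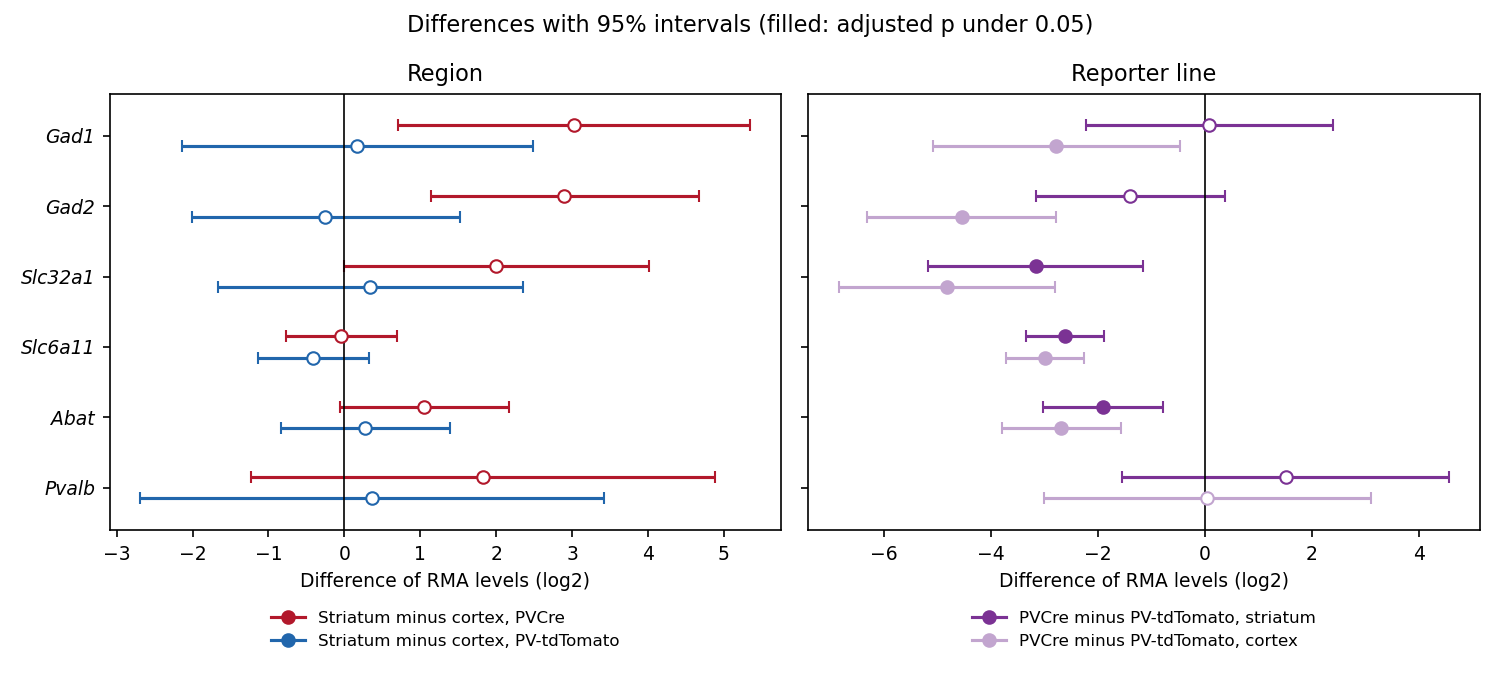
Differences of RMA levels (log2, horizontal axis) for the 5 GABA genes, striatum minus cortex within each line and PVCre minus PV-tdTomato within each region, with 95% intervals from limma, Pvalb below them for comparison, and filled points for an adjusted p under 0.05. All intervals of the region differences in PV-tdTomato hold 0, and all 5 cortical line differences lie below 0.

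Since 53.4% of all genes were called between the lines in striatum and 53.5% in cortex, a call by itself does not set a gene apart, and the sizes of the differences are given beside those of all genes. In striatum 0.4% of all genes had a lower difference than Slc32a1, 0.9% than Slc6a11, 3.4% than Abat and 8.7% than Gad2, against 65.1% for Gad1. In cortex these shares were 0.1% for Slc32a1, 0.2% for Gad2, 1% for Slc6a11, 1.5% for Gad1 and 1.7% for Abat. The median line difference of all genes was -0.22 in each region as deposited, and 0.10 in striatum and 0.12 in cortex after the arrays were centred. Less that median, Slc32a1 differed by -2.94 in striatum and -4.61 in cortex, and Gad1 by 0.31 in striatum and -2.56 in cortex.

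**Figure D3:**
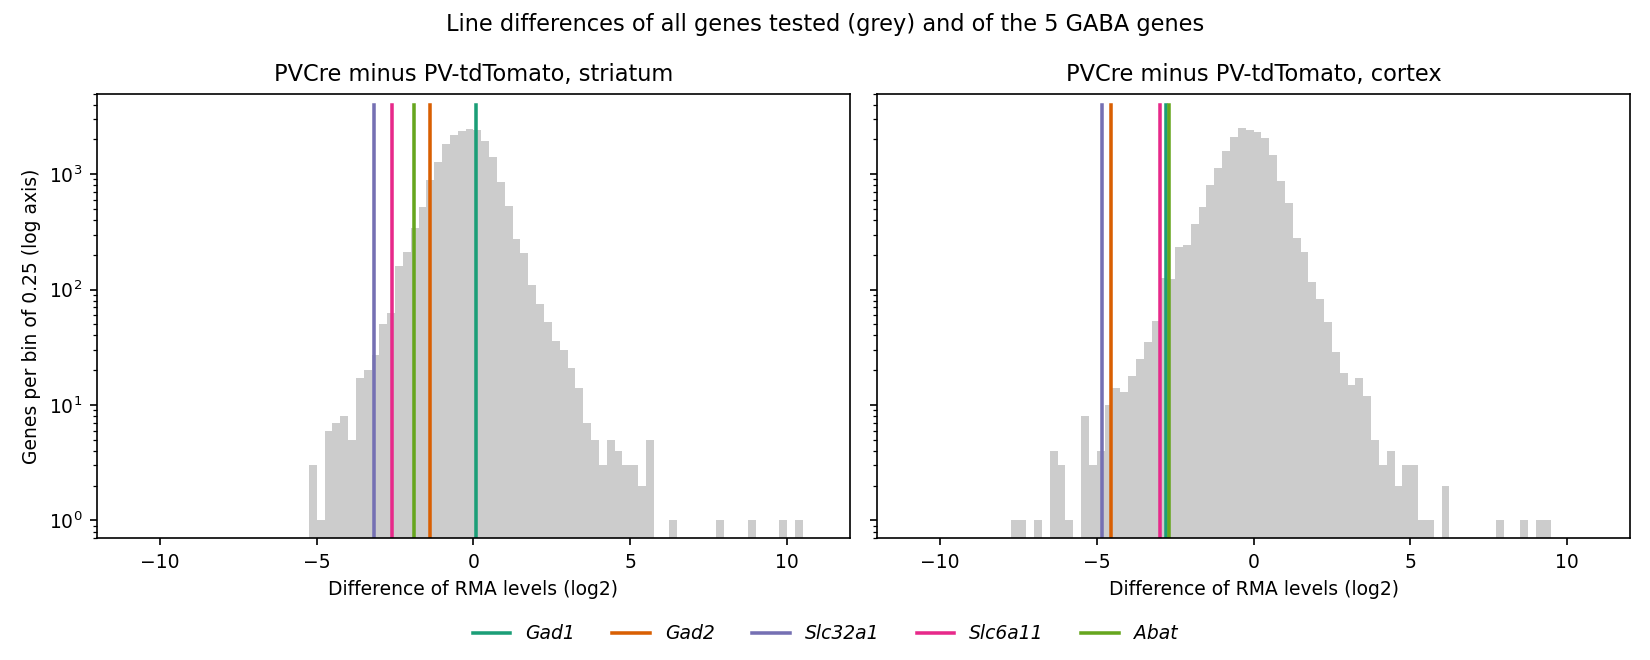
Number of genes (vertical log axis) by difference of RMA levels between PVCre and PV-tdTomato (log2, horizontal axis, bins of 0.25) in striatum and cortex, for 20486 genes in grey, with coloured lines for the 5 GABA genes. Slc32a1 lies farthest to the left of the 5 in both regions, and Gad1 lies at 0.08 in striatum and at -2.78 in cortex.

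Other measures of the arrays followed the line as well. Microglial markers averaged 7.60 to 9.87 on PVCre arrays and 5.41 to 6.02 on PV-tdTomato arrays. Against 18.3% of all genes called higher in striatum and 19.2% in cortex, 9 of 9 tested markers of the microglial list were higher in PVCre in each region. Of its defining markers, Csf1r was at 7.24 to 10.33 in PVCre and 4.82 to 5.40 in PV-tdTomato, P2ry12 at 6.49 to 10.08 in PVCre and 4.63 to 5.42 in PV-tdTomato, and Cx3cr1 at 9.23 to 11.66 in PVCre and 6.27 to 7.61 in PV-tdTomato. The separation of positive from negative control probe sets was 3.08 to 3.93 in PVCre and 4.16 to 4.84 in PV-tdTomato. Neither range overlapped between the lines. With the microglial mean as a covariate, Slc6a11 was the only gene of the 5 still called, by -3.25 ± 0.69 in striatum (limma, adjusted p = 0.011) and -3.69 ± 0.75 in cortex (0.014). In that fit 2876 of 20486 genes were called in striatum and 1708 in cortex. With the control separation Slc6a11 was again the only one of the 5, at -3.29 ± 0.61 in striatum (limma, adjusted p = 0.0031) and -3.60 ± 0.57 in cortex (0.0012). There 5636 of 20486 genes were called in striatum and 5426 in cortex. Because these measures and the line cannot be told apart, what either contributes to the line differences of the 5 genes, Slc6a11 included, was not tested.

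Markers of other cell types were set beside the line as well, with the share of all genes called for comparison. That share was 18.3% higher and 35% lower in PVCre striatum, and 19.2% higher and 34.4% lower in PVCre cortex. Markers of striatal projection neurons, which are GABA neurons too, averaged 7.59 to 8.47 in PVCre striatum and 8.74 to 8.99 in PV-tdTomato striatum, without overlap. Of these, 5 of 8 were lower in PVCre striatum and 3 of 8 in PVCre cortex, the latter near the share of all genes. Endothelial and pericyte markers averaged 6.77 to 8.73 in PVCre striatum and 5.81 to 6.26 in PV-tdTomato striatum, with 7 of 9 higher and 1 lower in PVCre striatum, and 1 higher and 1 lower in PVCre cortex. Of 9 oligodendrocyte markers, 4 were higher in PVCre striatum and 6 in PVCre cortex. Of 7 pyramidal neuron markers, 4 were lower and 1 higher in PVCre striatum, and 5 lower and 1 higher in PVCre cortex. Of 2 cholinergic markers tested, 2 were lower in PVCre striatum and 1 in PVCre cortex. Of 10 markers of parvalbumin interneurons themselves, Gad1 among them, 2 were lower in PVCre striatum and 4 in PVCre cortex. The part of these markers in the line differences was not tested.

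Markers of other interneurons and of astrocytes were set beside the 5 genes as well. Those of other GABA interneurons averaged 6.01 to 7.06 in PVCre and 8.16 to 12.07 in PV-tdTomato. Of these, 4 of 10 were lower in PVCre striatum, near the 35% of all genes called lower there. In PVCre cortex 10 of 10 were lower, against 34.4% of all genes. Astrocyte markers averaged 6.19 to 7.26 in PVCre and 6.62 to 8.01 in PV-tdTomato. Only 2 of 8 tested astrocyte markers were lower in PVCre in each region, under those shares. The astrocyte list was not uniform. Its first 3 markers were near background: Aqp4 was at 5.89 to 6.64 in PVCre and 5.97 to 6.92 in PV-tdTomato, Aldh1l1 at 5.73 to 5.89 in PVCre and 5.56 to 6.22 in PV-tdTomato, and Gfap at 5.19 to 5.59 in PVCre and 5.12 to 6.10 in PV-tdTomato. Gja1 and Gjb6 were also low, at 5.33 to 6.28 in PVCre and 4.97 to 6.81 in PV-tdTomato. The other 5 reached higher levels. Aldoc, a glycolytic enzyme gene, was at 6.95 to 8.01 in PVCre and 9.96 to 11.51 in PV-tdTomato, without overlap, as for Slc6a11, and fell by 3.02 ± 0.29 in striatum and 3.10 ± 0.29 in cortex (limma, adjusted p = 2.2e-06 and 1.9e-06). Slc1a2, the other marker called, was at 7.03 to 9.61 in PVCre and 9.07 to 12.04 in PV-tdTomato. Slc1a3 reached 8.43 in PVCre and 9.76 in PV-tdTomato, Mlc1 8.89 in PVCre and 9.84 in PV-tdTomato, and Sox9 8.92 in PVCre and 8.06 in PV-tdTomato, and these 3 were not called. In PV-tdTomato replicates 3 and 4, where Slc6a11 was highest, the astrocyte mean was 7.61 to 8.01 and the oligodendrocyte mean 14.81 to 15.32, against an astrocyte mean of 6.62 to 7.34 and an oligodendrocyte mean of 12.85 to 13.36 in replicates 1 and 2. The part of these markers in the Slc6a11 values was not tested.

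In PVCre, Gad1, Gad2 and Slc32a1 moved together, and Abat followed them more loosely. Across the 8 PVCre arrays, Gad1 and Gad2 correlated at r = 0.98 (rho = 0.98; exact permutation p = 5.0e-05, adjusted 3.5e-04), Gad1 and Slc32a1 at r = 0.99 (rho = 0.95; exact p = 2.0e-04, adjusted 6.9e-04) and Gad2 and Slc32a1 at r = 0.95 (rho = 0.90; exact p = 6.7e-04, adjusted 0.0016). Without PVCre cortex replicates 2 and 4, the arrays farthest out, r was 0.94, 0.97 and 0.84 for these pairs. Abat was looser, at r = 0.65 with Gad1, 0.72 with Gad2 and 0.58 with Slc32a1 (exact permutation, adjusted p = 0.087, 0.067 and 0.13). Its rank correlations with these genes did pass, at rho = 0.86, 0.83 and 0.81 (exact permutation, adjusted p = 0.019, 0.022 and 0.025), and without those arrays its r was 0.90, 0.91 and 0.80. In PV-tdTomato, Slc6a11 and Abat correlated at r = -0.71 (rho = -0.71; exact p = 0.048, adjusted 0.067), and at r = -0.59 without the pair of arrays farthest out. Adjustment was over the 7 relations given here. Striatal and cortical arrays were permuted together with group means left in, so these p-values include any difference between the regions. No value is given where levels fell into separate clusters, which held for Gad1, Gad2 and Slc32a1 in PV-tdTomato, with replicates 1 and 2 above 3 and 4, and for Slc6a11 in PVCre. The gap that defines such clusters was set after the levels were seen, and another one would give other pairs.

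Differences between these genes on the same array were not tested and are given as values. Slc32a1 minus Gad1 on the same array averaged -3.60 ± 0.27 in PVCre striatum, -2.58 ± 0.54 in PVCre cortex, -0.36 ± 0.12 in PV-tdTomato striatum and -0.53 ± 0.35 in PV-tdTomato cortex (SD, n = 4 each). Gad2 minus Gad1 averaged -2.15 ± 0.39 in PVCre striatum, -2.03 ± 0.84 in PVCre cortex, -0.68 ± 0.15 in PV-tdTomato striatum and -0.26 ± 0.31 in PV-tdTomato cortex (SD, n = 4 each). Abat minus Gad1 averaged -2.96 ± 0.49 in PVCre striatum and -0.97 ± 0.69 in PV-tdTomato striatum. In cortex it did not separate the lines, at -0.98 ± 2.67 in PVCre (-3.60 to 2.43) and -1.08 ± 0.21 in PV-tdTomato. These differences shift with the probes of each gene, so only their change between groups can be read, and they were looked at after the levels were seen. The highest value of Slc32a1 minus Gad1 on a PVCre array was -2.00, below the lowest on a PV-tdTomato array at -1.04. That PVCre value is from PVCre cortex replicate 2, with Slc32a1 at 6.88, close to background. In PVCre cortex replicate 4 Slc32a1 was at 5.12, within the background range. For Gad2 minus Gad1 the lines overlapped, with a highest PVCre value of -0.83 and a lowest PV-tdTomato value of -0.89, and 2 of the PVCre cortical values rest on Gad2 levels close to background.

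Against Pvalb, the relation was computed within the 10 arrays above the gap in Pvalb, the 6 below it and the 6 PVCre arrays above it, because the arrays fell into separate clusters. In the 10 arrays r was 0.75 for Gad1 (rho = 0.55; permutation p = 0.014, adjusted over 15 relations 0.11), 0.50 for Gad2, 0.46 for Slc32a1, 0.16 for Slc6a11 and 0.45 for Abat. In the 6 PVCre arrays r was 0.95 for Slc32a1 (rho = 0.94; exact permutation p = 0.0056, adjusted 0.083) and 0.85 for Gad1 (rho = 0.77; adjusted 0.21). None of the 15 passed the adjustment, with adjusted p of 0.083 or more for r and 0.25 or more for rho. Each set spans only part of the range of Pvalb, which limits what r can show. In the 6 arrays below the gap r was between -0.09 and 0.31, and between 0.74 and 0.90 over the 4 left when the farthest pair was taken out. Without the pair of arrays farthest from the median of Pvalb, r for Gad1 was 0.77 over 8 arrays and for Slc32a1 in PVCre 0.99 over 4. The cluster low in Pvalb itself held both lines: the PVCre cortical arrays, at a Pvalb of 6.69 and 7.93, had Gad1 at 7.40 and 8.88, while the PV-tdTomato arrays, at a Pvalb of 6.96 to 8.40, had it at 12.09 to 12.77.

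**Figure D4:**
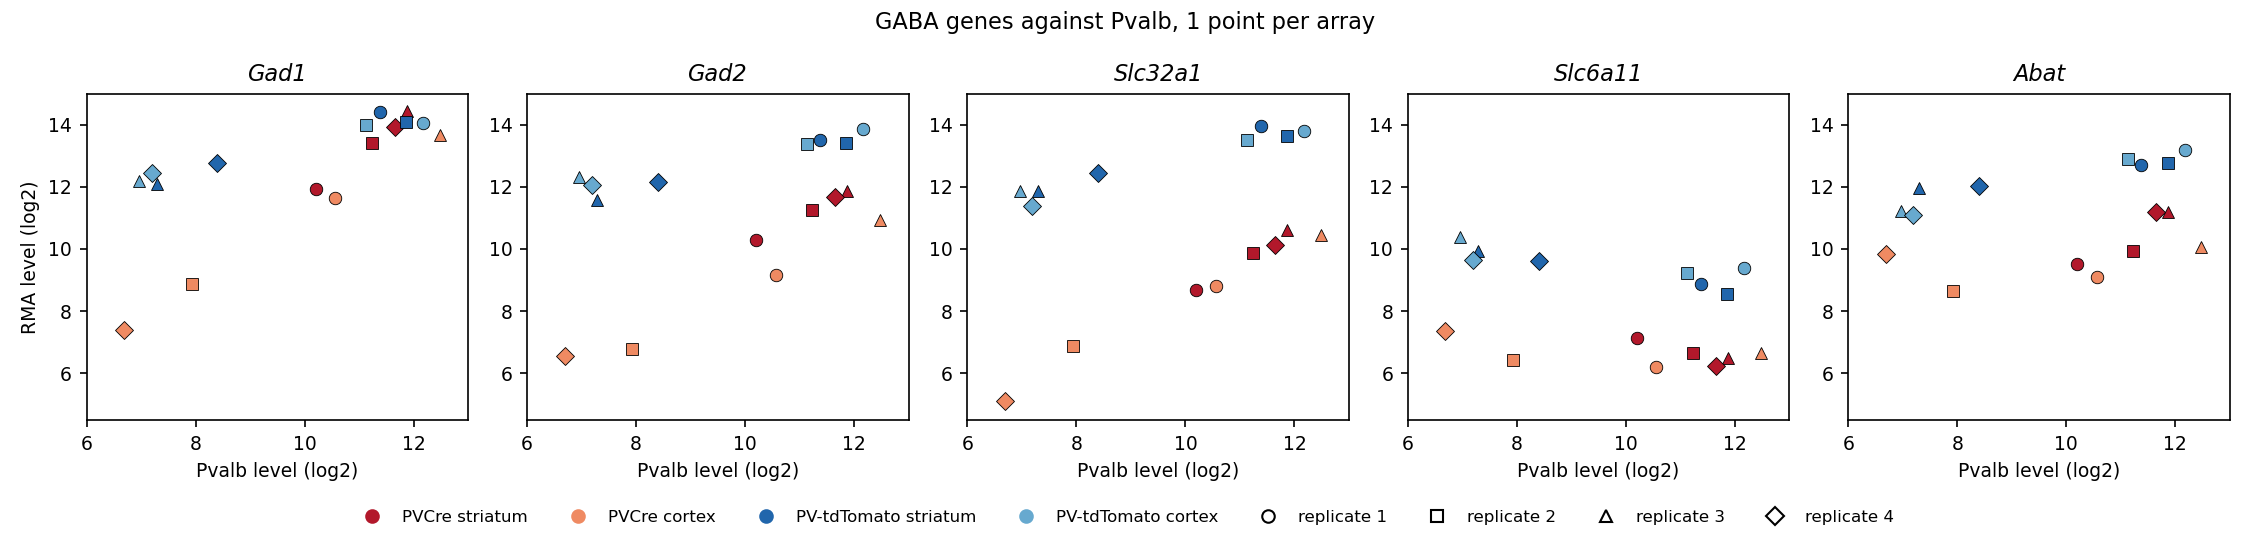
RMA level (log2, vertical axis) of each GABA gene against the level of Pvalb (log2, horizontal axis) on 16 arrays, 1 panel per gene, with groups by colour and replicates by point shape. The 6 arrays with Pvalb between 6.69 and 8.40 form a cluster apart from the 10 between 10.20 and 12.48, and Gad1 in that cluster is at 7.40 and 8.88 in PVCre cortex and at 12.09 to 12.77 in PV-tdTomato.

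For each of the 5, the genes most alike were found by Pearson's r over 16 arrays after group means were removed; arrays far from their group's mean weigh most in it. Gad1 was nearest to Atp1b1, a sodium pump subunit, Gabrb2, a GABA-A receptor subunit, and Rasgrf1, a Ras exchange factor (r = 0.99 each). Gad2 was nearest to Gabbr2, a GABA-B receptor subunit, Ldhb, a lactate dehydrogenase subunit, and Cap2, which binds actin (0.99 each). Slc32a1 was nearest to Atp1b1 (0.99), Gad1 (0.98) and the splicing regulator Rbfox1 (0.98). Many genes were about as near: 245 had r of 0.9 or more with Gad1, 394 with Gad2 and 279 with Slc32a1. Abat was nearest to Trak2, an adaptor of mitochondrial transport (0.97), Smarcal1 (0.96) and Hectd4 (0.95), with 66 such genes. Slc6a11 was nearest to Enox2 (0.91), Plpbp, which binds pyridoxal phosphate (0.91), and the fatty acid desaturase gene Fads2 (0.90), with 6 such genes. Over all genes the median r lay between -0.06 and 0.02. By the same measure r with Pvalb was 0.89 for Gad1, 0.91 for Gad2, 0.92 for Slc32a1, -0.76 for Slc6a11 and 0.71 for Abat, a description with no test in which the arrays low in Pvalb weigh most.

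The wider GABA pathway was read from lists of 42 genes, of which 29 were tested; the others were not analysed here. Between regions over both lines, 2 of 29 were called higher in striatum and 3 lower, against 3.32% of all genes called higher and 0.927% called lower. Adhfe1, an enzyme of GHB oxidation, rose by 0.61 ± 0.16, a call lost after centring (0.55 ± 0.16), and Sp9, a transcription factor of GABA neuron precursors, by 0.54 ± 0.11. The kinase gene Pdxk, which makes the cofactor of GAD and GABA transaminase, differed by -0.51 ± 0.14 at an adjusted p that rounds to the threshold. The vesicular glutamate transporter genes Slc17a7 (-0.86 ± 0.22) and Slc17a8 (-1.35 ± 0.25; adjusted p = 0.0037) fell. Without PVCre cortex replicates 2 and 4, 1 of the 29, Slc17a8, was still called, against 608 of 20486 genes. The median difference of the 29 was 0.04, against 0 for all genes.

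Slc17a8 was also the gene of the 29 whose region effect differed between the lines (2.68 ± 0.49; limma, adjusted p = 0.049), a call lost without PVCre cortex replicates 2 and 4 (2.76 ± 0.59; adjusted p = 0.25). It was near background at 5.39 to 5.91 in PVCre striatum, 5.48 to 5.75 in PVCre cortex and 5.31 to 5.61 in PV-tdTomato striatum, and at 7.26 to 9.38 in PV-tdTomato cortex. Within PVCre, 1 of the 29 rose in striatum, Adhfe1 by 0.92 ± 0.22, against 2.85% of all genes called higher and 1.04% called lower. Within PV-tdTomato, 1 fell, Slc17a8 (-2.69 ± 0.35), against 0.591% of all genes called lower and 1.72% called higher.

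Between the lines in striatum, 2 of the 29 rose and 10 fell, against 18.3% of all genes that rose and 35% that fell. In cortex 3 rose and 16 fell, against 19.2% of all genes that rose and 34.4% that fell. After centring the balance was 5 higher and 7 lower in striatum and 5 higher and 13 lower in cortex, with Slc6a13, Slc12a2 and Slc18a2 added among the higher in striatum and Slc38a2 and Sp9 in cortex. Of all 20486 genes, centring gave 6207 higher and 4454 lower in striatum, and 6710 higher and 4206 lower in cortex. As deposited, the median difference of the 29 was -0.60 in striatum and -1.12 in cortex, against -0.22 for all genes in each region. Aldh5a1, which takes over the product of GABA transaminase, was at 7.30 to 8.04 on PVCre arrays and 8.45 to 9.26 on PV-tdTomato arrays and fell by 1.12 ± 0.22 in each region (adjusted p = 6.8e-04). Other genes of breakdown were called in 1 region each, Aldh9a1 (-0.56 ± 0.22) and Akr7a5 (-0.57 ± 0.13) in striatum and Adhfe1 (-0.87 ± 0.22) in cortex, and lost that call when arrays were centred. Slc6a12, the gene of the betaine and GABA transporter BGT1, rose by 0.70 ± 0.10 in striatum and 0.58 ± 0.10 in cortex, but its levels of 5.89 to 6.24 in PVCre and 5.21 to 5.50 in PV-tdTomato were near background. Slc6a13, the GAT2 gene, was likewise near background and differed by -0.38 ± 0.12 in cortex, a call lost after centring (-0.05 ± 0.14).

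Of the genes that supply glutamate and glutamine, Slc1a1, the neuronal glutamate transporter gene, fell by 2.68 ± 0.41 in striatum and 1.50 ± 0.41 in cortex, and Slc1a2, the main astrocytic one, by 1.82 ± 0.65 in striatum and 2.80 ± 0.65 in cortex. The glutamine carrier gene Slc38a3 (-2.83 ± 0.87) and the aminotransferase gene Got2 (-1.76 ± 0.50) fell in cortex, and Slc38a2, another glutamine carrier gene, rose in striatum by 1.82 ± 0.52. Pdxk fell by 1.75 ± 0.19 in striatum and 1.84 ± 0.19 in cortex, and Pdxp, which removes the phosphate that Pdxk adds, by 1.66 ± 0.55 in cortex. Slc12a5, the chloride exporter gene that makes GABA inhibitory, fell by 1.72 ± 0.55 in striatum and 1.78 ± 0.55 in cortex, and Slc12a2, the chloride importer gene, rose by 1.67 ± 0.58 in cortex.

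Among transcription factors of GABA neurons, Lhx6 fell in striatum by 1.53 ± 0.48, and Dlx1 (-1.47 ± 0.34) and Dlx2 (-1.02 ± 0.39) fell in cortex. The GABA-B receptor gene Gabbr1 fell by 1.79 ± 0.33 in striatum and 2.38 ± 0.33 in cortex, and Gabbr2 fell by 3.24 ± 0.85 in cortex. Slc17a7 fell by 1.28 ± 0.31 in striatum and 1.35 ± 0.31 in cortex, Slc17a8 fell by 2.62 ± 0.35 in cortex, and the monoamine carrier gene Slc18a2, near background, rose there by 0.28 ± 0.09. Without PVCre cortex replicates 2 and 4, 10 of the 29 were called in cortex in place of 19, and Gabbr2, at -1.62 ± 0.79, was not among them. Of all 20486 genes, 8251 were called in cortex without these 2 arrays, in place of 10970. Quantile normalization took the striatal calls of Slc1a2, Slc12a5, Lhx6 and Aldh9a1 and the cortical ones of Slc1a1 and Slc18a2, and centring also took those of Slc1a2 in striatum and Dlx2 in cortex, while quantile normalization too added Slc38a2 in cortex; under neither scaling did a called line difference of the 29 change sign. With the microglial mean as a covariate 3 of the 29 were called in striatum and 2 in cortex, against 2876 and 1708 of 20486 genes. With the control separation 5 of the 29 were called in striatum and 6 in cortex, against 5636 and 5426 of 20486 genes. Of the line differences called without a covariate, Pdxp in cortex then had the other sign with the microglial mean, and Slc12a5 in both regions, Lhx6 in striatum and Got2 and Pdxp in cortex with the control separation; none of these was called there.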

How the data were processed

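Sorted tdTomato cells of 4 groups were measured on 16 Affymetrix mouse arrays, 4 per group. Per the submitters' processing notes, the authors used RMA in Affymetrix Expression Console, and the deposited values are on the log2 scale; software version, array grouping during RMA and genome build: not given in the sources used here. Per the labels' protocols, 5 ng of RNA was amplified and 5.5 µg of cDNA labelled. Of 65956 transcript clusters, 31202 had 1 gene in the platform annotation; for a gene with several, the cluster with the highest mean stood for it. Of 30729 genes, those with a mean of at least 5.53 were tested (20486). Arrays give no read depth, and their number limits the precision. No label names a batch or date, and one aligned with the lines could not be separated from them.

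The test was limma (version 3.58.1, R 4.3.3), with lmFit and eBayes on all 16 arrays, a mean for each group and 1 spread per gene shared over the 4 groups. The p-values were adjusted by Benjamini and Hochberg's method across 20486 genes, at a threshold of 0.05. Relations between genes used two-sided permutation tests (exact under 10 arrays, otherwise 100000 resamples; scipy 1.17.1). The fits were tested on simulated data. Alternatives were other filters, scalings and priors, array weights, fits on the arrays compared, the replicate block, marker or control covariates and left-out arrays. Leaving out PVCre cortex replicates 2 and 4, the within-array differences, the promoter motifs and the rule for separate clusters (a gap wider than the range on either side, with at least 2 arrays a side) were chosen after the values were seen. The genes and lists were chosen with earlier results of these data known. Named genes were the 5, Pvalb, Aldh5a1, pathway genes past 0.05 in a comparison, the first 3 markers of a list and the 3 genes most alike; Xist was added because it goes against the labelled sex, and the rest of the astrocyte list after its values were seen.

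Replicates are pools of sorted cells, and p-values measure the spread between pools. The groups share replicate numbers. In PV-tdTomato, deviations from the group mean on striatal and cortical arrays of 1 number had r between 0.58 and 0.76 for every number. The best match of striatal replicates 1 and 2 was cortical replicate 1, however, and that of striatal replicates 3 and 4 cortical replicate 3. The numbers are thus not shown to pair the arrays. The main fit used no pairing, and the replicate block is an alternative. In the other comparisons some pairs were below 0.1. In PVCre cortex the numbers in titles and descriptions differ, and the titles were used. Promoters are RefSeq's. Other software was Python 3.11.15, pandas 2.3.3, numpy 2.4.6 and, for plots, matplotlib 3.10.9.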

Additional observations from a re-analysis of the deposited data

How the results depend on the processing

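Across the alternatives, Slc6a11 kept its line call in both regions, and Gad2 (cortex), Slc32a1 and Abat (both regions) kept theirs except with the microglial or control covariate, where Slc6a11 was the 1 gene of the 5 called. The line difference then had the other sign with the microglial mean for Gad2 (1.20) and Slc32a1 (0.32) in striatum and Gad1 (1.52) in cortex, with 2876 genes called in striatum and 1708 in cortex. With the control separation it did so for Gad2 (2.13), Slc32a1 (0.19) and Abat (0.11) in striatum and Gad1 (0.91) in cortex, with 5636 called in striatum and 5426 in cortex. Both covariates differ between the lines without overlap, so these fits cannot separate them from the line for any of the 5 genes, Slc6a11 included. The cause was not tested.

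Array weights called 4 of the 5 over both lines (5634 genes), 3 in PVCre (2487) and 1590 genes in PV-tdTomato, with Gad2 there at 0.61, Slc6a11 in PVCre at 0.13, Gad1 between lines in striatum at -0.20 and 132 genes for the interaction. The control separation called 2 of the 5 in PVCre (1276 genes), with Gad1 in PV-tdTomato at -0.07. The oligodendrocyte mean gave Slc6a11 0.02 over both lines and 0.30 in PVCre, Gad1 -0.17 in PV-tdTomato, 740 genes there and 166 for the interaction; the microglial mean gave Slc6a11 0.02 in PVCre. Without the 6 arrays lowest in Pvalb, 1595 genes were called over both lines, 1043 in PV-tdTomato and 154 for the interaction, with Slc6a11 at 0.19 in PVCre, Abat at -0.30 in PV-tdTomato and Gad1 at -0.83 between lines in striatum. Without PVCre cortex replicates 2 and 4, 318 genes were called in PVCre and 6 for the interaction, with Slc6a11 at 0.19 and Slc32a1's interaction at -0.15. With a stricter filter on low levels 307 genes were called in PV-tdTomato, against 474, and in a fit of only the arrays compared 283. In 2 Pvalb relations of Slc6a11, r was 0.74 and 0.34 over the 4 arrays left without the farthest pair, the former over arrays of both lines. The causes were not tested.

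With the replicate block, 2075 genes were called over both lines, 1 of the 5 among them (Abat, 0.66 ± 0.17), 2092 in PVCre with 2 of the 5 (Gad2 and Abat), and 128 for the interaction. In PVCre, r between striatal and cortical arrays of 1 number went down to -0.29, and the numbers are not shown to pair them. In PV-tdTomato, where r was 0.58 to 0.76 but best matches crossed numbers, the block called 578 genes against 474 and none of the 5. Gad1's line call in cortex was lost with the block (-2.78 ± 1.14), quantile normalization (-2.40 ± 0.98), centring (-2.44 ± 1.06), array weights, the oligodendrocyte mean, only the arrays compared or without the 6 arrays lowest in Pvalb. Gad2 gained a line call in striatum with array weights (-1.68), only the arrays compared (-1.39) or without those 6 arrays (-2.19).

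With 1 array left out, the 5 had 0 to 1 calls over both lines and 0 to 2 in PVCre, and genes called ranged 511 to 826 in PVCre and 21 to 69 for the interaction. Slc6a11 in PVCre ranged -0.21 to 0.19. In PV-tdTomato, Gad1 ranged -0.18 to 0.59, Gad2 -0.53 to 0.12, Slc32a1 -0.07 to 0.73 and Abat -0.06 to 0.63; Gad1 between lines in striatum ranged -0.34 to 0.58. Among line calls, 34.3% in striatum and 35.8% in cortex were higher in PVCre as deposited, against 49.6% in striatum and 52.1% in cortex after quantile normalization and 58.2% in striatum and 61.5% in cortex after centring. Trying other clusters of each gene gave no value, since each has 1. Levels near 6 limit what can be read of Slc6a11 in PVCre.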
